A study of Mus musculus with 6 samples.

Results

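Nucleolar ribosome biogenesis genes were followed in HCC3-4, a liver tumour cell line established from MYC transgenic mice, after stable knockdown of the splicing factor gene Sf3b3. The genes came from a list of 55 names for proteins of small nucleolar ribonucleoproteins (snoRNPs), RNA polymerase I, pre-rRNA processing and ribosome assembly, many of them known MYC targets. Of these, 54 were among the 11866 listed genes, and all 54 passed the filter of a mean of at least 1 FPKM (fragments per kilobase of exon in a library scaled for depth) that left 10770 genes tested. Wdr74 was not analysed here. Poly(A)-captured RNA was sequenced in 3 KD libraries, from cells with a hairpin RNA against Sf3b3 (shSf3b3), and in 3 PLKO libraries, from cells with the negative control vector pLKO.1-TRC. Both groups share the MYC transgenic origin and the culture medium, and the labels name 1 hairpin construct and no rescue. Since no label speaks of separate cultures within a group, the p-values reflect library-to-library spread that could be technical alone. In bulk RNA, fewer cells of a type and less RNA per cell cannot be told apart.

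Ribosomes are assembled in the nucleolus. RNA polymerase I, brought to ribosomal DNA by UBF and RRN3, transcribes a long precursor that holds rRNA of both subunits. Box C/D snoRNPs guide its methylation and H/ACA snoRNPs its pseudouridylation, while helicases, nucleases, GTPases and scaffold proteins cut, fold and export the small and large subunits. MYC is known to raise transcription of many of these genes through E-boxes, of which CACGTG is the classical form.

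The motif CACGTG, which reads the same on both strands, was looked up in the RefSeq promoter table (GRCm38.p6, from 250 bases before to 50 bases after each start). The table held 47 of the 54 genes, and 9 of them (19.1%) contained the motif, against 12.22% of the 8273 tested genes with an entry and 8.09% of all 27025 genes of the table. The sites are shown with up to 12 bases on either side, on the strand of the gene, with the motif in capitals, because CACGTG is the sequence that MYC with its partner MAX prefers. The motifs began between position -215 (the distal site of Rrn3) and position 41 (Mybbp1a), counted from the start.
Nop2, chr6:125131811-125131840, plus strand: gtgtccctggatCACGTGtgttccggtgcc
Utp4, chr8:106893643-106893672, plus strand: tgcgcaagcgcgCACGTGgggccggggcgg
Ltv1, chr10:13193092-13193121, minus strand: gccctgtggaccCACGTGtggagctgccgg
Utp20, chr10:88826765-88826789, minus strand: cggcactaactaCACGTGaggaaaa
Pes1, chr11:3963965-3963994, plus strand: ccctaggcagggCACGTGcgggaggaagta
Mybbp1a, chr11:72441355-72441376, plus strand: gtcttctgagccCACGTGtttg
Utp18, chr11:93885769-93885798, minus strand: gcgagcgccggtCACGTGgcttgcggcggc
Rrn3 (distal), chr16:13780472-13780501, plus strand: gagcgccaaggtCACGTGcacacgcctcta
Rrn3 (proximal), chr16:13780639-13780668, plus strand: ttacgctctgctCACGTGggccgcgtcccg
Wdr43, chr17:71616220-71616249, plus strand: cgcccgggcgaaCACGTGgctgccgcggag
A match to these letters is a description of the promoter and does not show that MYC binds there.

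Between 15140441 and 17566101 reads per library were assigned to listed genes, and each ribosome biogenesis gene had at least 179 reads in every library. Sf3b3, which encodes a subunit of the splicing factor that recognises the branch point, had 10.3, 9.56 and 13.9 FPKM in KD 1, 2 and 3, against 22.6, 28.7 and 29.2 FPKM in PLKO 1, 2 and 3. It fell in KD, with a log2 fold change of -1.26 (SE 0.23, adjusted p = 0.0372 by limma, and 0.125, 0.127, 0.154 and 0.189 without PLKO 1, PLKO 2, KD 1 or KD 2). Of the 8 hepatocyte markers and the 3 endothelial markers, 0 were among the listed genes, so their levels were not analysed here. The stellate cell or fibroblast markers Col1a1, Col3a1 and Pdgfrb, 3 of 4 on their list, summed to between 39.6 and 66.4 FPKM in KD and between 94.3 and 144.1 FPKM in PLKO. Cd68, 1 of 4 leukocyte markers, had between 44.4 and 95 FPKM in KD and between 9.2 and 42.1 FPKM in PLKO. Krt19 and Sox9, 2 of 4 biliary or progenitor markers, summed to between 63.2 and 70.6 FPKM in KD and between 54.1 and 80.7 FPKM in PLKO. The part of these markers in the results was not tested.

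No ribosome biogenesis gene passed the test over all genes. Limma with Benjamini-Hochberg adjustment called 0 of 54, where 2.92% of all tested genes were called (1.79% lower and 1.12% higher in KD), and voom fits of recovered reads also called 0. At an unadjusted p under 0.05 there were 12 genes lower and 1 higher in KD, 24.1% of the 54, beside 27.6% of all tested genes (15.9% lower and 11.7% higher). Log2 fold changes, KD minus PLKO, ran from -1.43 (Rrp12) to 0.54 (Polr1c), and 38 of the 54 (70.4%) lay below 0, beside 52.3% of all tested genes. Their median was -0.37, against -0.04 over all tested genes. The groups did not overlap for 10 genes with KD below PLKO, where 18.8% of all tested genes did so, and for 1 gene with KD above PLKO, where the share was 13.4%. These 11 genes are 20.4% of the 54, beside 32.1% of all tested genes.

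No label pairs the libraries by number, and pairing was judged only from these same values. In a fit that treats libraries of the same number as pairs (the replicate block), 7 genes were called, all lower in KD. They are Rrp12, Polr1e, Polr1b, Ltv1, Gnl2, Nop56 and Bop1, 13% of the 54, where the block called 19.3% of all tested genes (11.1% lower and 8.19% higher in KD). The count also turned on the libraries numbered 3. Without PLKO 3, 2 genes were called (Polr1e and Rrp12) beside 7.44% of all tested genes, and without KD 3 there were 3 (Polr1b, Polr1e and Rrp12) beside 16.2%. Without both, 9 were called beside 27.9%, of which 7 were lower and 2 higher in KD (Polr1c and Brix1). In each of these fits the share of the 54 genes was below that of all tested genes.

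**Figure D1:**
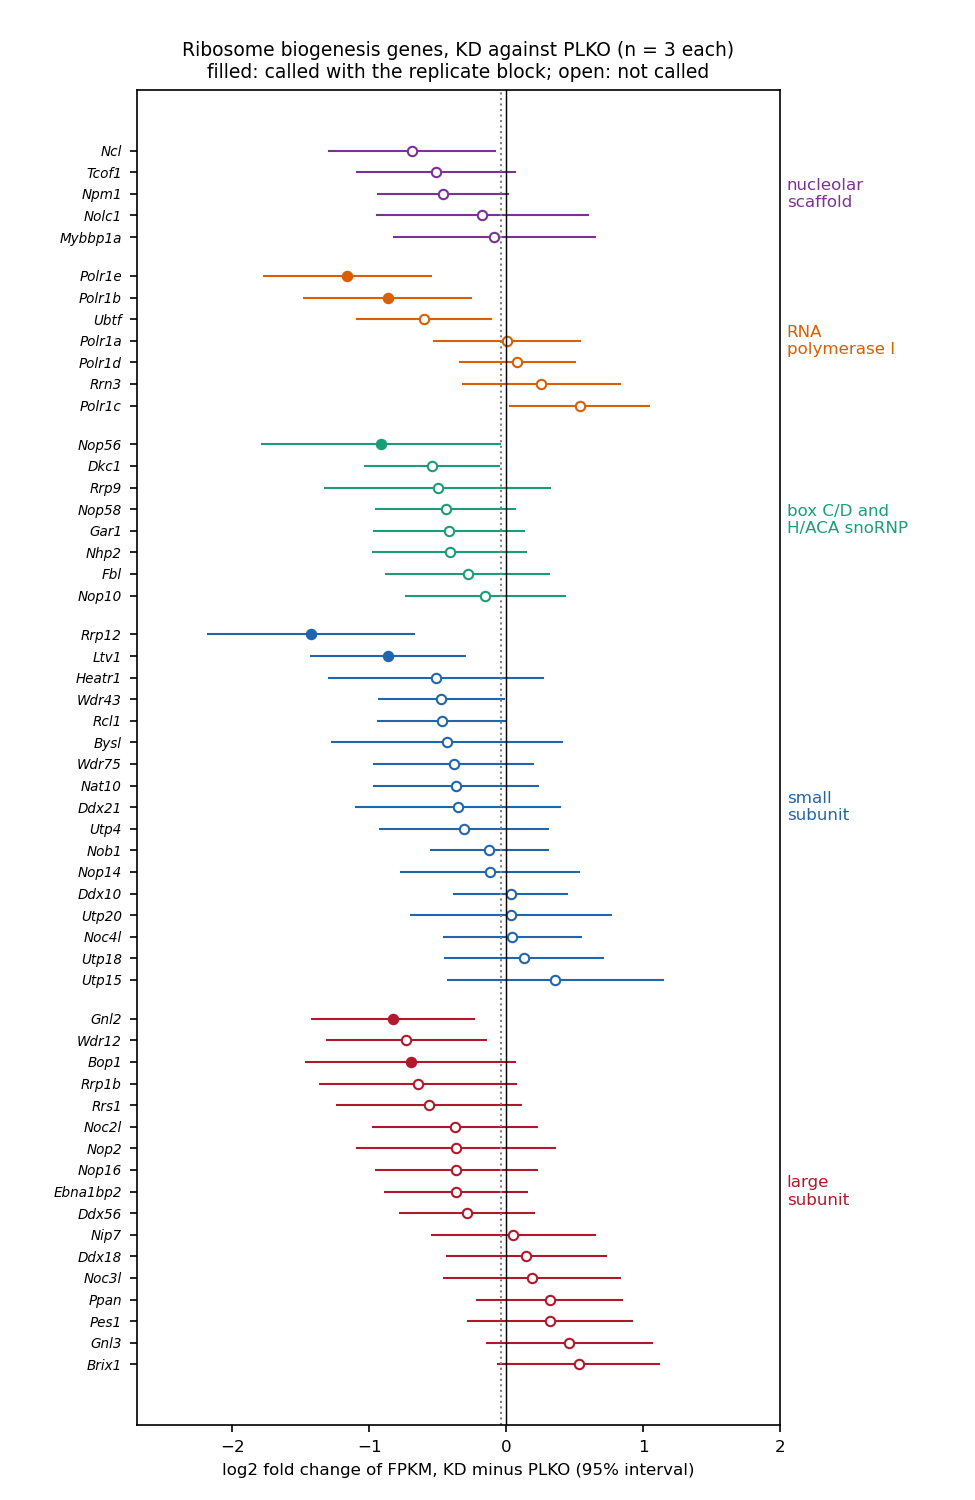
Log2 fold change of FPKM, KD minus PLKO, of the 54 ribosome biogenesis genes, sorted within 5 steps, with the 95% interval from limma without the block (3 KD and 3 PLKO libraries); the dotted line is the median of all tested genes at -0.04. Filled points mark the 7 genes called with the replicate block, from Rrp12 at -1.43 to Bop1 at -0.70, and all 8 snoRNP proteins and all 5 scaffold proteins lie left of 0.

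PLKO 2 stood apart from the other libraries for these genes. It was the highest of the 6 libraries for 37 of the 54 genes (68.5%), beside 27.3% of all tested genes. The median deviation of the 54 genes from the PLKO mean was -0.17, -0.34 and -0.41 on the log2 scale in KD 1, 2 and 3, against -0.30, 0.43 and -0.12 in PLKO 1, 2 and 3. On this scale PLKO 1 lay among the KD libraries and PLKO 3 just above them, while PLKO 2 lay far above all. Over all tested genes these medians stayed between -0.06 and 0.05. Without PLKO 2 the median fold change of the 54 genes was -0.09, and 33 of 54 lay below 0. KD 3 was the lowest library for 22 of the 54 genes and the highest for 0, beside 16.2% and 12.5% of all tested genes.

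Myc was also highest in PLKO 2, but the other libraries ranked differently. It had 9.88, 12.2 and 30.6 FPKM in KD 1, 2 and 3, against 32.01, 87.5 and 19.1 FPKM in PLKO 1, 2 and 3, so the groups overlapped. Its log2 fold change was -1.29 (SE 0.57, adjusted p = 0.183 by limma). It was -0.68 without PLKO 2 (adjusted p = 0.426), and -2.27 without both libraries numbered 3, where Myc was called lower (adjusted p = 0.00665). KD 3 held the most Myc of the KD libraries and the lowest median of the 8 snoRNP proteins, at -0.60 on the log2 scale from the PLKO mean. Among the KD libraries it was also lowest for small subunit genes (-0.42, KD 2 -0.34) and RNA polymerase I genes (-0.21, KD 2 -0.16). KD 2 was lower than KD 3 for scaffold genes (-0.48 against -0.42) and large subunit genes (-0.33 against -0.32). PLKO 3 had less Myc than KD 3, and its snoRNP median was -0.06. The values are those of the row of the mouse gene Myc. Whether they include transcripts of the MYC transgene was not tested, so they need not be the total MYC of these cells. The part of Myc in the levels of these genes was not tested.

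**Figure D2:**
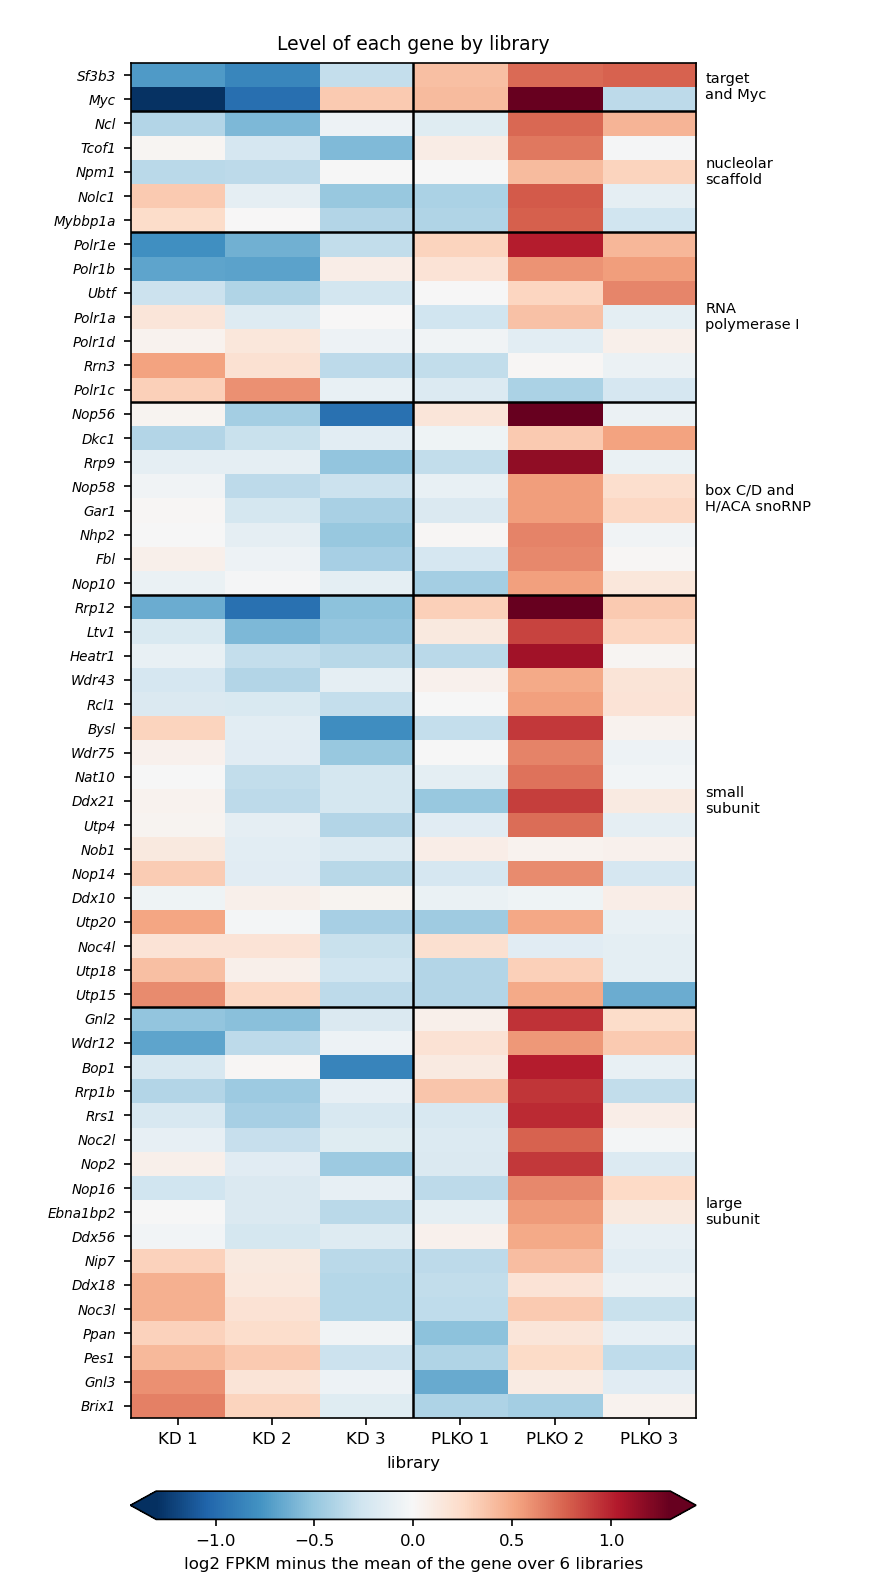
Log2 FPKM of each gene minus its mean over the 6 libraries, with KD 1 to 3 on the left and PLKO 1 to 3 on the right, for Sf3b3, Myc and the 54 ribosome biogenesis genes by step; colours saturate at the ends of the scale. PLKO 2 is the highest library in 37 of the 54 rows and KD 3 the lowest in 22.

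RNA polymerase I genes lay on both sides of 0. Polr1e, which encodes the PAF53 subunit found only in this polymerase, had 3.002, 3.4 and 4.18 FPKM in KD 1, 2 and 3, against 6.41, 10.6 and 7.05 FPKM in PLKO 1, 2 and 3. Every KD library lay below every PLKO library. Its log2 fold change was -1.16 (SE 0.27, adjusted p = 0.0547 by limma), and with the replicate block it was called lower (adjusted p = 0.00997). Without PLKO 2 the value was -0.94. The gene lies at chr4:45018583-45036565 (GRCm38, plus strand) and overlaps Fbxo10 on the other strand. The sources used here do not say whether counting used strand, which touches all 18 of the 54 genes with such an overlap.

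Polr1b, the second largest subunit, had 6.09, 6.05 and 10.45 FPKM in KD 1, 2 and 3, against 11.1, 14.7 and 14.3 FPKM in PLKO 1, 2 and 3. The groups did not overlap, although KD 3 came close to PLKO 1. Limma gave a log2 fold change of -0.87 (SE 0.27, adjusted p = 0.0896), called lower with the block (0.0242), against -0.79 without PLKO 2. The gene lies at chr2:129100995-129126594. Polr1a, the largest subunit, had 11.3, 9.01 and 10.2 FPKM in KD, against 8.44, 13.1 and 9.24 FPKM in PLKO. The ranges were shared, with a log2 fold change of 0.0031 (95% interval from -0.53 to 0.54), and of 0.19 without PLKO 2.

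Polr1c, a subunit that RNA polymerases I and III share, had 62.3, 75.7 and 47.1 FPKM in KD 1, 2 and 3, against 44.5, 37.7 and 43.3 FPKM in PLKO 1, 2 and 3. It was the 1 gene of the 54 with every KD library above every PLKO library, by a small margin for KD 3. The log2 fold change of 0.54 (SE 0.22) was called neither without the block (adjusted p = 0.162) nor with it (0.118). The gene lies at chr17:46243920-46248054. Polr1d, its partner in both polymerases, had 28.3 ± 2.02 FPKM in KD and 26.7 ± 1.94 FPKM in PLKO (SD, n = 3 each). The ratio of Polr1c to Polr1e, a pair chosen after its values were seen, was 20.8, 22.3 and 11.3 in KD 1, 2 and 3, against 6.94, 3.57 and 6.14 in PLKO 1, 2 and 3. All KD libraries lay above all PLKO libraries on this scale, which is a description and was not tested.

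Of the factors, Ubtf, which encodes UBF and keeps ribosomal DNA open, had 35.7 ± 1.94 FPKM in KD and 55.1 ± 12.3 FPKM in PLKO (SD, n = 3 each). The groups did not overlap, and the log2 fold change was -0.60 (adjusted p = 0.119 by limma), against -0.61 without PLKO 2. Rrn3, which carries the polymerase to the promoter, had a log2 fold change of 0.26 (adjusted p = 0.537), with KD 1 highest.

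All 8 snoRNP proteins had log2 fold changes below 0, with a median of -0.43, and limma called 0 of them. At an unadjusted p under 0.05 there were 2 (25%), beside 27.6% of all tested genes. Without PLKO 2 the median was -0.22, with 7 below 0: Nop10 was then at 0.0743, Fbl at -0.0366 and Rrp9 at -0.0469. Nop56, a core protein of box C/D snoRNPs, had 72.01, 51.4 and 35.8 FPKM in KD 1, 2 and 3, against 77.998, 172 and 66.5 FPKM in PLKO 1, 2 and 3. PLKO 2 lay far above the rest, and KD 1 lay above PLKO 3. The log2 fold change was -0.92 (SE 0.38, adjusted p = 0.163, and 0.0383 with the block), against -0.50 without PLKO 2. The gene lies at chr2:130274430-130279313, overlaps Idh3b on the other strand and holds 5 annotated snoRNA genes, Snord57 and Snord110 among them. Nop58, its partner in the same particle, had 19.3 ± 2.17 FPKM in KD and 26.5 ± 5.77 FPKM in PLKO (SD, n = 3 each), a log2 fold change of -0.44 (adjusted p = 0.232; -0.28 without PLKO 2). Fbl, the methyltransferase of these particles, was at -0.28 (adjusted p = 0.51). Rrp9, a protein of the box C/D snoRNP needed for small subunit rRNA, had 28.5, 28.4 and 21.6 FPKM in KD, against 24.7, 68.8 and 29.1 FPKM in PLKO. PLKO 2 lay far above the other 5 libraries, with a log2 fold change of -0.50 (adjusted p = 0.394).

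Dkc1, the pseudouridine synthase of H/ACA snoRNPs, had 21.4, 22.8 and 25.3 FPKM in KD 1, 2 and 3, against 26.8, 35.2 and 40.2 FPKM in PLKO 1, 2 and 3. The groups did not overlap, and the log2 fold change was -0.54 (SE 0.22, adjusted p = 0.15 by limma), against -0.50 without PLKO 2. Gar1 and Nhp2, which bind with it, were at -0.42 and -0.41 (adjusted p = 0.288 and 0.303), and at -0.25 and -0.19 without PLKO 2. Nop10, the smallest protein of the particle, had 54.5, 57.3 and 53.3 FPKM in KD, against 42.6, 83.6 and 64.1 FPKM in PLKO. The KD libraries lay inside the PLKO range, with a log2 fold change of -0.15 (adjusted p = 0.725).

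Nucleolar scaffold proteins and chaperones, 5 genes, all lay below 0 with a median of -0.46 (-0.30 without PLKO 2, with 3 below 0). Limma called 0 of them with or without the block. Without the block, 1 (20%) had an unadjusted p under 0.05, beside 27.6% of all tested genes. Ncl, which encodes nucleolin, had 101, 88.2 and 126 FPKM in KD 1, 2 and 3, against 118, 222 and 179 FPKM in PLKO 1, 2 and 3. KD 3 lay above PLKO 1, and the log2 fold change was -0.69 (SE 0.27, adjusted p = 0.14). Npm1, nucleophosmin, had 406, 409.6 and 516 FPKM in KD, against 515, 688 and 633 FPKM in PLKO. KD 3 and PLKO 1 held nearly the same level, and the log2 fold change was -0.46 (SE 0.21, adjusted p = 0.19). Tcof1, treacle, which works with UBF at ribosomal DNA, was at -0.51 (adjusted p = 0.225; -0.30 without PLKO 2). Mybbp1a, which takes part in rRNA transcription and processing, had 102, 86.8 and 66.4 FPKM in KD, against 66.03, 148 and 72.2 FPKM in PLKO. PLKO 2 was far above the other libraries, and the log2 fold change was -0.09 (adjusted p = 0.882). Nolc1, a chaperone of snoRNPs, was at -0.18 (adjusted p = 0.759). Without PLKO 2, Mybbp1a was at 0.28 and Nolc1 at 0.18, while Ncl and Npm1 stayed below 0, at -0.48 and -0.37.

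The 17 small subunit factors had a median of -0.35 on the log2 scale, 12 of them below 0. Leaving out PLKO 2 gave a median of -0.0855, with 11 below 0. Rrp12, known from yeast for processing and export of pre-ribosomes, had the lowest fold change of the 54 genes. It had 5.104, 4.08 and 5.51 FPKM in KD 1, 2 and 3, against 9.896, 22.2 and 10.1 FPKM in PLKO 1, 2 and 3, from 277 to 416 reads in KD and 690 to 1603 reads in PLKO. All KD libraries lay below all PLKO libraries, with PLKO 2 far above the other 5. Its log2 fold change was -1.43 (SE 0.33, adjusted p = 0.055), called lower with the block (0.0085), and it was -1.04 without PLKO 2 (adjusted p = 0.132). The gene lies at chr19:41862851-41896173 on the minus strand.

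Ltv1, a factor of late small subunit maturation, had 16.8, 12.9 and 13.6 FPKM in KD 1, 2 and 3, against 21.1, 35.6 and 23.4 FPKM in PLKO 1, 2 and 3. The groups did not overlap. The log2 fold change was -0.86 (SE 0.25, adjusted p = 0.0761, and 0.031 with the block), against -0.63 without PLKO 2, and the gene lies at chr10:13178140-13193168. Nob1, the nuclease that makes the end of the mature small subunit rRNA, had 29.7 ± 3.54 FPKM in KD and 32.1 ± 0.454 FPKM in PLKO (SD, n = 3 each). Its fold change on the log2 scale was -0.12, with a 95% interval from -0.55 to 0.30. Wdr43, of the early complex that joins rRNA transcription to processing, and Rcl1 did not overlap between groups. They were at -0.47 and -0.47 (adjusted p = 0.169 and 0.177 by limma), and at -0.35 and -0.32 without PLKO 2.

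Other members of that early complex spread to both sides of 0. Heatr1, Wdr75 and Utp4 were at -0.51, -0.38 and -0.31, and without PLKO 2 at -0.0948, -0.16 and -0.0234. Utp15 had the highest fold change of the step at 0.36 (SE 0.35; 0.69 without PLKO 2). Utp15 had 30.4, 24.1 and 15.7 FPKM in KD, against 15.3, 27.996 and 12.7 FPKM in PLKO, with the ranges largely shared. Bysl, Nat10 and Ddx21 were at -0.43, -0.37 and -0.35, and Nop14 at -0.12. Without PLKO 2 Bysl and Nat10 were at -0.0855 and -0.1028, and Ddx21 and Nop14 lay above 0, at 0.0117 and 0.16. Nat10 acetylates the small subunit rRNA, and Ddx21 is a helicase that also acts in RNA polymerase I transcription. Utp18, Noc4l, Utp20 and Ddx10 lay between 0.03 and 0.13, and between -0.015 (Noc4l) and 0.32 (Utp18) without PLKO 2. Adjusted p-values of these 12 genes lay between 0.355 and 0.955.

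The 17 large subunit factors had a median of -0.36, with 10 below and 7 above 0. Without PLKO 2 the median was -0.0822, with 9 below 0. Gnl2, a GTPase of the nuclear large subunit precursor, had 21.5, 21.1 and 26.96 FPKM in KD 1, 2 and 3, against 32.1, 58.7 and 36.1 FPKM in PLKO 1, 2 and 3. The groups did not overlap. Limma gave a log2 fold change of -0.82 (SE 0.26, adjusted p = 0.091), called lower with the block (0.0358), against -0.56 without PLKO 2. It lies at chr4:125016585-125055380 and overlaps Dnali1 on the other strand. Gnl3, nucleostemin, a related GTPase known from stem and tumour cells, had 39.7 ± 9.58 FPKM in KD and 28.98 ± 7.39 FPKM in PLKO (SD, n = 3 each), a log2 fold change of 0.46 (adjusted p = 0.286; 0.63 without PLKO 2).

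Pes1, Bop1 and Wdr12 form 1 complex that is needed to process rRNA of the large subunit, and their fold changes differed in sign. Bop1 had 25.1, 29.3 and 16.03 FPKM in KD 1, 2 and 3, against 31.5, 58.9 and 27.1 FPKM in PLKO 1, 2 and 3. KD 2 lay above PLKO 3, and the log2 fold change was -0.70 (SE 0.34, adjusted p = 0.212, 0.0458 with the block, and -0.36 on the log2 scale without PLKO 2). The gene (chr15:76452989-76477277) overlaps Mroh1 and Scx on the other strand. Wdr12 had 2.67, 3.38 and 4.09 FPKM in KD, against 4.89, 6.32 and 5.44 FPKM in PLKO. Its groups did not overlap (-0.73, SE 0.26, adjusted p = 0.113 by limma, and 0.0538 with the block). Without PLKO 2 Wdr12 was at -0.63 on the log2 scale. Pes1 had 77.1, 73.2 and 47.5 FPKM in KD, against 44.02, 68.4 and 45.8 FPKM in PLKO. Its ranges were shared (0.32, SE 0.27, adjusted p = 0.455; 0.52 without PLKO 2).

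The ratio of Pes1 to Bop1 within a library, a pair chosen after its values were seen and so given without a test, was 3.07, 2.501 and 2.96 in KD 1, 2 and 3, against 1.399, 1.16 and 1.69 in PLKO 1, 2 and 3. All KD libraries lay above all PLKO libraries, and PLKO 2 was the lowest. The ratio of Pes1 to Wdr12 was 28.9, 21.7 and 11.6 in KD and 9, 10.8 and 8.43 in PLKO. For the box C/D pair Nop56 and Nop58 the ratio was 3.32, 2.92 and 1.94 in KD and 3.72, 5.29 and 2.56 in PLKO, so these ranges overlapped.

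Brix1, a factor of large subunit rRNA folding, had the highest fold change of its step, with 40.97, 31.8 and 23.4 FPKM in KD 1, 2 and 3, against 19.7, 19.1 and 26.9 FPKM in PLKO 1, 2 and 3. KD 3 lay below PLKO 3. The log2 fold change was 0.53 (SE 0.26, adjusted p = 0.217). Rrp1b and Rrs1 were at -0.64 and -0.56 (adjusted p = 0.221 and 0.245), and at -0.34 and -0.22 without PLKO 2. Rrs1, an early large subunit factor, is a gene with 1 exon. Nop2, a methyltransferase of the large subunit rRNA, had 42.2 ± 7.77 FPKM in KD and 57.6 ± 27.7 FPKM in PLKO (SD, n = 3 each), a log2 fold change of -0.37 (adjusted p = 0.477). Without PLKO 2 it was at 0.0014. Noc2l, Nop16, Ebna1bp2 and Ddx56 lay between -0.37 and -0.29, and Nip7, Ddx18, Noc3l and Ppan between 0.05 and 0.32. Without PLKO 2 these were between -0.18 (Ebna1bp2) and -0.0822 (Noc2l), and between 0.27 (Nip7) and 0.48 (Ppan). Adjusted p-values of these last 8 genes lay between 0.328 and 0.913.

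**Figure D3:**
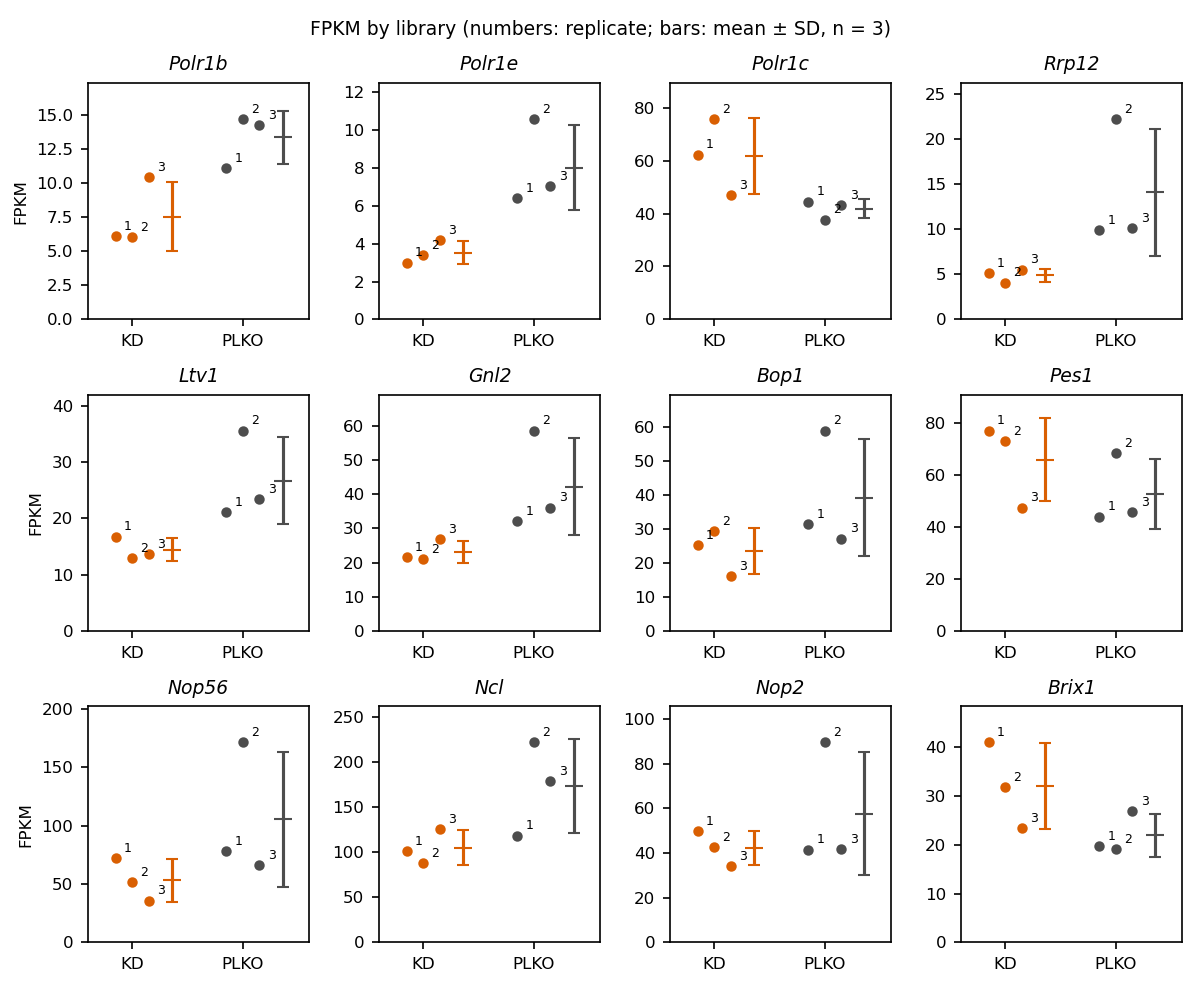
FPKM of 12 ribosome biogenesis genes, with KD left of PLKO in each panel; each numbered point is a library, and the bars are mean ± SD (n = 3); axes start at 0. For Polr1b, Polr1e, Rrp12, Ltv1 and Gnl2 all KD points lie below all PLKO points, for Polr1c above them, and for Nop56, Bop1 and Nop2 the point of PLKO 2 lies far above the other controls.

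A wider list of pathway genes, of which 109 were tested (Exosc6 was not analysed here), gave 6 calls, all lower in KD, where 1.79% of all tested genes were called lower. The count was 4 with quantile normalization, with median centring and with voom, and 3 without a filter. Their median log2 fold change was -0.23, and 74 of 109 lay below 0, against a median of -0.0348 and 61 below 0 without PLKO 2. With the replicate block 26 were lower and 2 higher (Taf1d and Utp23), 25.7% beside 19.3% of all tested genes, and the groups did not overlap for 41.3%, beside 32.1%. PLKO 2 was the highest library for 67.9% of them. Without PLKO 1, PLKO 2, KD 1 or KD 2 limma called 0 of the 109 and 0 of all tested genes, of which between 1793 and 2315 had an unadjusted p under 0.05.

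Heatr3, a carrier of ribosomal proteins of the large subunit, had 9.78, 8.66 and 15.1 FPKM in KD 1, 2 and 3, against 22.2, 37.8 and 29.97 FPKM in PLKO 1, 2 and 3. It fell in KD (log2 fold change -1.43, SE 0.28, adjusted p = 0.0433 by limma). Rrp15, a nucleolar large subunit factor, had 5.65, 5.86 and 9.71 FPKM in KD, against 15.2, 25.2 and 16.98 FPKM in PLKO, and fell too (-1.45, SE 0.29, adjusted p = 0.0435). Both had KD 3 as the highest KD library, still below every PLKO library.

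Of 40 other small subunit factors, 3 fell. Ddx49, a helicase, had 5.48, 5.39 and 6.95 FPKM in KD, against 11.7, 21.2 and 11.9 FPKM in PLKO (-1.28, SE 0.28, adjusted p = 0.0485). Tbl3, of the small subunit processome, had 3.75, 4.97 and 5.41 FPKM in KD, against 9.67, 14.1 and 8.79 FPKM in PLKO (-1.19, SE 0.26, adjusted p = 0.0498). Nol7, a nucleolar protein, had 10.1, 13.8 and 16.9 FPKM in KD, against 25.7, 32.9 and 27.5 FPKM in PLKO (-1.10, SE 0.24, adjusted p = 0.0492). All KD libraries of these 3 genes lay below all PLKO libraries.

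Of 9 other snoRNP proteins and assembly factors, 1 fell. Pih1d1, of the complex that assembles box C/D particles, had 9.697, 11.6 and 14.5 FPKM in KD 1, 2 and 3, against 23.5, 23.6 and 22.01 FPKM in PLKO 1, 2 and 3 (-0.97, SE 0.21, adjusted p = 0.0498). Here PLKO 2 did not stand apart from the other controls. Naf1, an assembly factor of H/ACA particles, had 7.69, 8.63 and 11.7 FPKM in KD, against 15.9, 17.4 and 17.1 FPKM in PLKO (-0.87, adjusted p = 0.062, and 0.0191 with the block), again with no overlap.

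Of 13 other RNA polymerase I subunits and factors limma called 0, at a median of 0.04. At an unadjusted p under 0.05 there were 4 (30.8%), beside 27.6% of all tested genes. Znrd1, a small subunit of the polymerase, had 20.5, 22.3 and 21.8 FPKM in KD, against 34.4, 37.5 and 31.2 FPKM in PLKO (-0.67, adjusted p = 0.0707, and 0.0433 with the block). Taf1d, of the promoter selectivity factor, had 35.2, 21.5 and 13.4 FPKM in KD, against 7.24, 9.28 and 13.8 FPKM in PLKO (1.15, adjusted p = 0.0944, and 0.0344 with the block). KD 1 and KD 2 lay above every PLKO library, and KD 3 just below PLKO 3. Of 13 nuclear exosome genes, which trim pre-rRNA, limma called 0. At an unadjusted p under 0.05 there were 3 (23.1%), beside 27.6% of all tested genes. Exosc5 and Exosc4 were at -0.92 and -0.91 (adjusted p = 0.0822 and 0.134; the block gave 0.0251 and 0.017).

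**Figure D4:**
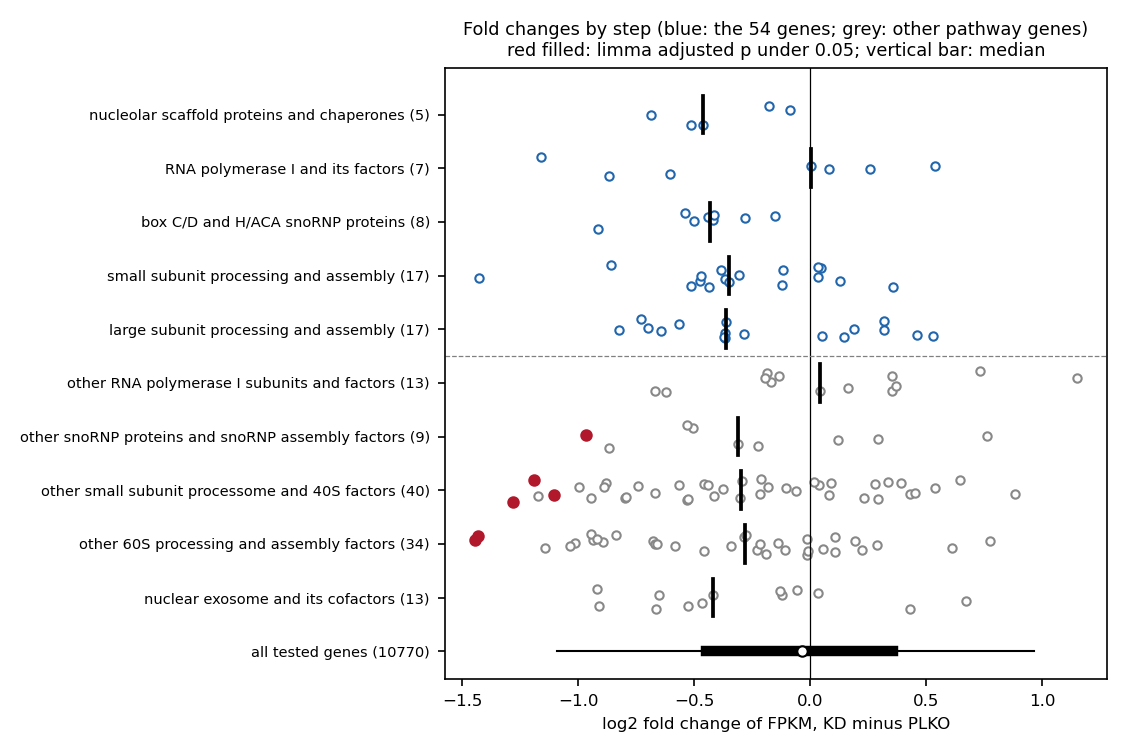
Log2 fold change of FPKM, KD minus PLKO, of the 54 ribosome biogenesis genes by step (blue) and of 109 other genes of the pathway (grey); each point is a gene, vertical bars are medians, and for all tested genes the thick bar spans the 25th to 75th percentile and the thin line the 5th to 95th. The 6 called genes, filled red, are all other genes of the pathway and lie between -0.97 and -1.45.

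Genes with a CACGTG site had fold changes on both sides of 0. The 9 genes whose sites are printed above had a median log2 fold change of -0.09, from -0.86 (Ltv1) to 0.32 (Pes1), with 5 below 0, and the 38 genes of the table without the motif had a median of -0.36, with 26 below 0. The medians were 0.28 for the 9 genes, with 3 below 0, and -0.0901 for the 38, with 23 below 0, once PLKO 2 was left out. These are descriptions over genes of the same 6 libraries and were not tested. In 7 of the 54 genes the annotation (GENCODE M21) places 21 snoRNA genes, namely in Nop56, Nop58, Ncl, Wdr43, Gnl3, Ppan and Dkc1. Log2 fold changes of these hosts ran from -0.92 (Nop56) to 0.46 (Gnl3).

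Levels between genes depend on the length used. For 49 of the 54 genes the length that turned the deposited values into whole reads was the merged length of all annotated exons, and for 10 it exceeded by more than 2 times that of the mRNA with the longest coding sequence. For Wdr12 it was 4.195 times as long and for Fbl 3.52 times. The reads over all these exons were also scaled per kilobase of that mRNA. Reads from exon parts outside that mRNA stay counted, so these levels can overstate it. On this scale Npm1 had 663, 668 and 841 in KD and 841, 1122 and 1032 in PLKO. Rrp12 had 5.05, 4.03 and 5.46 in KD and 9.82, 22.1 and 10.04 in PLKO. Npm1 had the highest of these levels among the 54 genes in all libraries. The length is the same in all libraries, so as a divisor it cancels in fold changes. Whether the mix of transcripts counted over these exons differed between KD and PLKO was not tested.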

How the data were processed

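RNA-seq of 3 KD and 3 PLKO libraries was analysed from 1 table that the authors deposited, whose values were read as log2 FPKM. The submitters' processing notes name GRCm38 and FastQC 0.11.7. For the aligner, counter, strand use and gene filter the entry is "not given in the sources used here". Steps in the low values showed a prior of about 2 reads added before the logarithm, which understates fold changes of low genes, and gave whole reads for 100% of genes (tolerance 0.01 reads), with GENCODE M21 exonic lengths for 10962 genes and scanned lengths for 904. These reads give the depth (15140441 to 17566101 per library) and enter alternatives only.

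The deposited log2 values were fitted with limma (3.58.1, in R 4.3.3 with statmod 1.5.0), using the trend option and group as the only term (4 residual degrees of freedom), on the 10770 genes with a mean of at least 1 FPKM. A gene was called at a Benjamini-Hochberg adjusted p under 0.05, two-sided. An exact permutation test of 3 against 3 cannot go below p = 0.1. Intervals are 95% intervals from limma, and FPKM are powers of the deposited values. Alternatives changed the pseudocount, filter, normalization, weighting, pairing and libraries used.

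The members, steps and lists were chosen with earlier results of these data known. The text names Sf3b3, Myc and any member, and of each wider list every called gene and the 2 with the lowest adjusted p. In each step, values in every library are given for the 2 members with the lowest p and those with the largest and smallest fold change. Bop1, Pes1, Polr1a, Rrp9, Utp23 and the ratios were added after their values were seen.

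As a check of pairing, deviations from the group means correlated at 0.181, 0.293 and 0.497 between libraries numbered 1, 2 and 3. All exceed 0.1, so the block is reported, on the ground of these data and no label. Within a group the deviations of a gene cancel out, so these correlations are not independent of each other. The calls with the block rest on a pairing judged from the same values. A fit with the libraries numbered 1 and 2 paired the other way was not run. PLKO 1 was closer to KD 2 (0.275) than to KD 1 (0.181), and PLKO 2 slightly closer to KD 1 (0.299) than to KD 2 (0.293). These values therefore do not settle how the libraries numbered 1 and 2 pair. Gene coordinates come from GENCODE M21 (GRCm38, counted from 1).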

Additional observations from a re-analysis of the deposited data

How the results depend on the processing

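The count of 0 called ribosome biogenesis genes was also found with log2(FPKM + 1), without a filter, with a mean of at least 5 FPKM, with quantile normalization, with median centring and with voom on recovered reads with either library size (total library sizes were chosen after seeing the data). It was 7 with the replicate block, 9 without both libraries numbered 3 and 25 with array weights, which gave KD 2 a weight of 44.7 and called 6030 of all 10770 genes. Leaving out 1 library gave 0 to 3. For the 109 other pathway genes the count of 6 was also found with log2(FPKM + 1) and a mean of at least 5 FPKM. It was 4 with quantile normalization, 4 with median centring, 4 with voom, 3 without a filter and 2 with voom and total library sizes. It was 28 with the block, 62 with array weights and 34 without both libraries numbered 3. With 1 library left out it ran from 0 to 23 (23 without KD 3). Of all tested genes, 2.92% were called in the main fit, 19.3% with the block and 56% with array weights. The share was 27.9% without both libraries numbered 3 and 16.2% without KD 3. The median fold change of the 54 genes ran from -0.52 (without PLKO 1) to -0.09 (without PLKO 2). Without PLKO 2 the scaffold median was -0.30, RNA polymerase I 0.03, snoRNP -0.22, small subunit -0.09 and large subunit -0.08. Sf3b3 ran from -1.43 to -1.15 with 1 library left out. Myc was called with array weights (-1.49, adjusted p = 0.000598) and without both libraries numbered 3 (-2.269, adjusted p = 0.00665).

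The direction turned for some genes, including Nop2, Ddx21 and Fbl, whose fold changes with all libraries were -0.37, -0.35 and -0.28. With array weights Nolc1 was at 0.11, Mybbp1a at 0.23, Fbl at 0.0215, Nop10 at 0.23 and Polr1a at -8e-04, and without both libraries numbered 3 Polr1a was at -0.064. With 1 library left out the log2 fold change ran from -0.13 to 0.19 for Polr1a, -0.0304 to 0.32 for Utp18, -0.21 to 0.30 for Utp20, -0.0019 to 0.0862 for Ddx10, -0.11 to 0.27 for Nip7, -0.43 to 0.18 for Nolc1, -0.30 to 0.28 for Mybbp1a, -0.41 to 0.0743 for Nop10, -0.31 to 0.16 for Nop14, -0.0337 to 0.20 for Noc4l, -0.68 to 0.0117 for Ddx21, -0.55 to 0.0014 for Nop2 and -0.0472 to 0.37 for Ddx18. The cause was not tested. The replicate block changed no call of a ribosome biogenesis gene beyond those given in the report. Every ribosome biogenesis gene had at least 179 reads in each library.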
